A study of Homo sapiens with 6 samples.

Results

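The DLK1-MEG3 cluster is an imprinted stretch of human chromosome 14, and 9 of its RNAs were examined among 18417 genes measured on whole-transcript arrays. The 9 members were MEG3, DLK1, RTL1 and every array feature naming a single gene of the SNORD113 or SNORD114 family, which gave 6 small nucleolar RNAs (snoRNAs). They were chosen by symbol, with their difference between the 2 cell lines already in view. That difference is therefore described with its values and standard error and carries no test.

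CAsE-PE cells are a malignant line obtained by growing the human prostate epithelial line RWPE-1 continuously in 5 µM sodium arsenite, and they were arrayed after 30, 33.5 and 35 weeks of exposure, 1 array each. Their parent, the papillomavirus-immortalised and untreated RWPE-1 line, was arrayed at passages 18, 38 and 42, 1 array each. The labels give no passage for CAsE-PE, no weeks for RWPE-1 and no untreated culture kept for the same time, so arsenite, transformation and time in culture cannot be told apart. Nothing says that the 3 arrays of a line came from separate cultures, so every p-value below measures only the spread between these arrays, and CAsE-PE stands for 1 transformed line.

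In an imprinted cluster each gene is read from the copy inherited from 1 parent. DLK1, a membrane-bound ligand-like protein that modulates Notch signalling, and RTL1, a protein derived from a retrotransposon, are read from the paternal copy. The maternal copy gives a run of noncoding RNAs that includes MEG3, the snoRNA arrays SNORD113 and SNORD114, and a large group of microRNAs, and a differentially methylated region near MEG3 governs which side is active. MEG3 has been described as growth suppressive and as linked to p53 and to Polycomb repressive complex 2, while the SNORD113 and SNORD114 snoRNAs are box C/D RNAs without an established target.

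MEG3 is the member whose start region is known best, and its promoter is shown because a cyclic AMP response element there is a described control element. The RefSeq sequence of build GRCh38.p14 lies at chr14:100825858-100826157 on the plus strand and runs 5′ to 3′. Capitals mark TGACGTCA, the only motif searched, on both strands.
MEG3 promoter: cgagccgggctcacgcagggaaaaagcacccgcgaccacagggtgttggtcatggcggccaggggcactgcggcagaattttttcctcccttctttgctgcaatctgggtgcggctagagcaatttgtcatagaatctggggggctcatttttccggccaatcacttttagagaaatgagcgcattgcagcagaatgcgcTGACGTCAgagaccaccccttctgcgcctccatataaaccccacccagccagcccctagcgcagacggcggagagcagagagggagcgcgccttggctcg
This is the first of 3 RefSeq entries for MEG3, which differ in their start. The match begins 50 bases before the start of this entry, and 60 and 74 bases before the starts of the others, and 530 of 27305 promoters of this length (1.94%) hold the same letters. The printed window holds 19 CpG dinucleotides, where the median promoter holds 13, and that count stands at percentile 57.9 of the 27305 promoters. In the RTL1 promoter of the same table, at chr14:100903673-100903972 on the minus strand, there were 6 CpG and no match to these letters.

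MEG3, the long noncoding RNA of the cluster, was lower in every CAsE-PE array than in any RWPE-1 array. Its feature (7976795) read 80.9, 79.9 and 63.8 intensity units in CAsE-PE at 30, 33.5 and 35 weeks, against 227, 282 and 308 in RWPE-1 cells of passages 18, 38 and 42. The groups lay far apart, and the lowest CAsE-PE value came at 35 weeks. On the log2(intensity + 1) scale used for all differences, the level was 6.24 ± 0.19 in CAsE-PE and 8.08 ± 0.22 in RWPE-1 (SD, n = 3 each), a difference of -1.85 (SE 0.14) or 3.59-fold. Among all 33252 features of an array, MEG3 stood between percentiles 41.3 and 46.7 in CAsE-PE and between percentiles 70.2 and 77.0 in RWPE-1. In such bulk RNA, fewer cells that make a transcript and less of it per cell cannot be told apart.

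**Figure D1:**
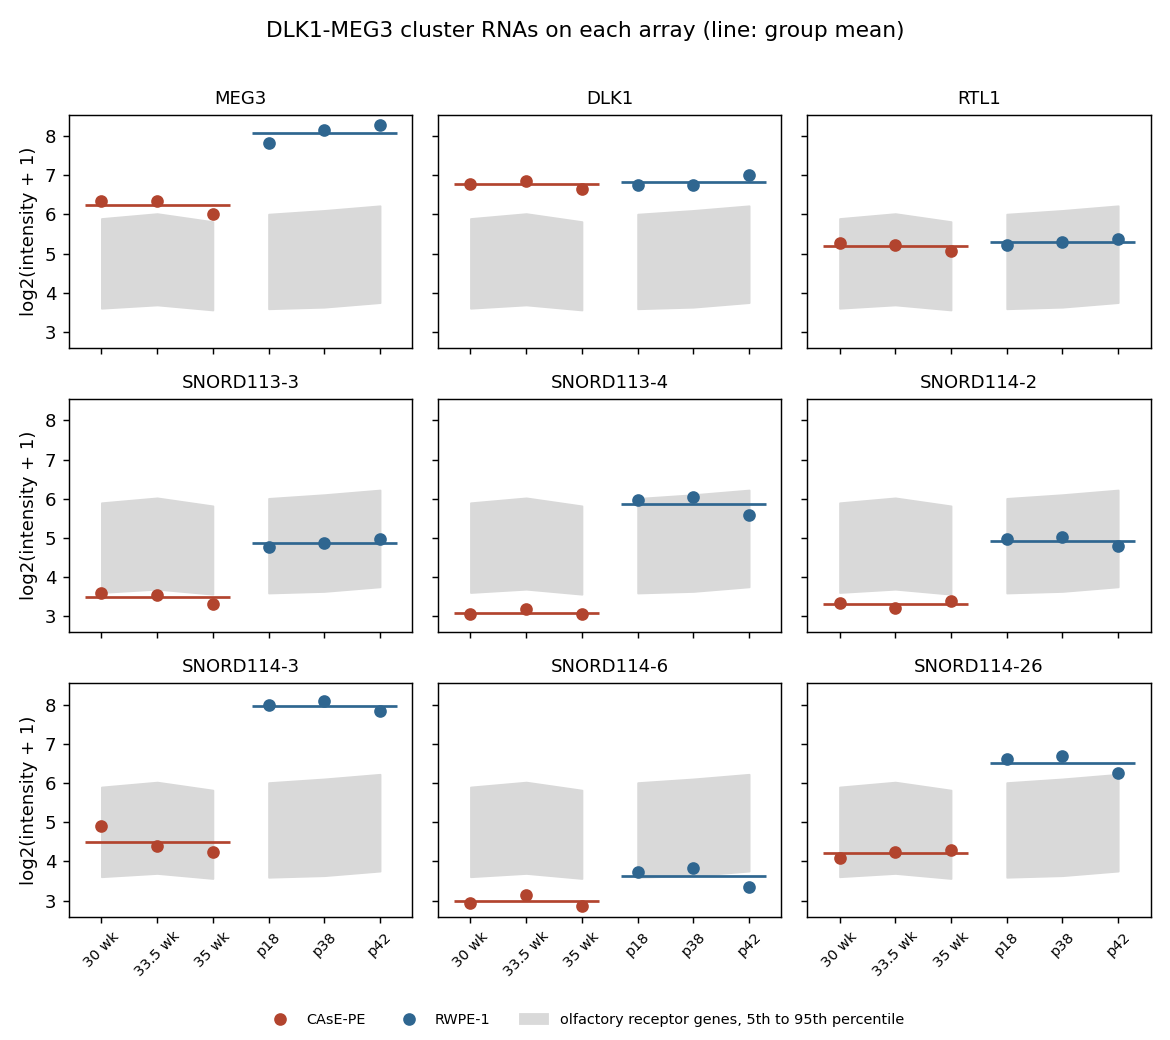
Each panel plots 1 of the 9 RNAs as log2(intensity + 1) on the 3 CAsE-PE arrays (weeks of arsenite) and the 3 RWPE-1 arrays (passage), with points for arrays, lines for group means and a grey band for the 5th to 95th percentile of 361 olfactory receptor genes. MEG3 and all 6 snoRNAs sit lower on every CAsE-PE array, and DLK1 and RTL1 overlap between the lines.

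DLK1 and RTL1, protein-coding genes read from the paternal copy, overlapped between the lines. DLK1 (feature 7976783) read 109, 115 and 100.2 in CAsE-PE at 30, 33.5 and 35 weeks, against 107, 106 and 127 in RWPE-1 cells of passages 18, 38 and 42. The ranges overlapped, and the difference was -0.07 on the log2 scale (SE 0.11). RTL1 (feature 7981322) read 37.9, 36.5 and 32.6 in CAsE-PE, against 36.4, 38.7 and 40.7 in RWPE-1. These ranges overlapped too, at a difference of -0.11 (SE 0.10). RTL1 lay within the 5th to 95th percentile of the olfactory receptor genes on every array. Those genes were taken by symbol as a yardstick for dim features, and none was left out for expression in prostate.

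The 6 snoRNAs were each lower on every CAsE-PE array than on any RWPE-1 array. SNORD114-3 (feature 7976816) had the widest separation, with 28.7, 20.0 and 17.8 in CAsE-PE at 30, 33.5 and 35 weeks, against 252, 269 and 227 in RWPE-1 cells of passages 18, 38 and 42. The 30-week array was the highest of the CAsE-PE arrays, yet it stood far below the lowest RWPE-1 array. The difference was -3.46 on the log2 scale (SE 0.17), or 11.0-fold as measured. The CAsE-PE values lay near the olfactory receptor median of their arrays, so the size of the fold depends on the floor of the scale, and the difference was -2.81 with 16 in place of 1 added before the logarithm. Its percentile among all features was 12.6 to 21.7 in CAsE-PE and 70.5 to 73.6 in RWPE-1.

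SNORD113-4 (feature 7976812) read 7.34, 8.10 and 7.29 in CAsE-PE at 30, 33.5 and 35 weeks, against 61.5, 64.5 and 47.1 in RWPE-1 cells of passages 18, 38 and 42. The CAsE-PE arrays lay within 1 unit of each other near the floor of the intensity scale, between percentiles 2.83 and 3.57 of all features. The difference was -2.76 (SE 0.13), or 6.79-fold as measured, and -1.64 with 16 added before the logarithm. The CAsE-PE values lay below the 5th percentile of the olfactory receptor genes, so this fold describes a level near the floor.

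SNORD114-26 (feature 7976826) read 16.1, 17.8 and 18.8 in CAsE-PE, against 96.4, 102 and 76.0 in RWPE-1. The groups did not overlap, and here the 35-week array was the highest of the CAsE-PE arrays. The difference was -2.31 (SE 0.13), or 4.96-fold. SNORD114-2 (feature 7976814) read 9.16, 8.33 and 9.55 in CAsE-PE, against 30.5, 31.3 and 26.6 in RWPE-1, a difference of -1.60 (SE 0.11) or 3.04-fold. SNORD113-3 (feature 7976810) read 11.1, 10.6 and 9.01 in CAsE-PE, against 26.4, 28.4 and 30.2 in RWPE-1, a difference of -1.39 (SE 0.11) or 2.61-fold. Both of these dim snoRNAs had compact groups with a clear gap between them. With 16 added before the logarithm the differences were -1.67 for SNORD114-26, -0.86 for SNORD114-2 and -0.76 for SNORD113-3.

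SNORD114-6 (feature 7976818) was the dimmest member, with 6.69, 7.79 and 6.28 in CAsE-PE, against 12.2, 13.4 and 9.19 in RWPE-1. It was the snoRNA with the narrowest gap, 0.21 on the log2 scale between the highest CAsE-PE and the lowest RWPE-1 array. Its difference was -0.66 (SE 0.14) as measured and -0.27 with 16 added before the logarithm. CAsE-PE lay below the 5th percentile of the olfactory receptor genes on every array and RWPE-1 lay near it, so no fold is given.

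In count, 7 of the 9 members were lower without overlap, beside 22.8% of all 18417 genes, and 6 of 9 were at least 2-fold lower, beside 2.09% of all genes. Among the dimmest 33.3% of genes those shares were 26.1% and 1.69%. Since the members were chosen with this contrast in view, nothing is read from these shares. The median difference was -1.60 over the 9 members and -1.96 over the 6 snoRNAs, beside -0.06 over all genes. Adding 16 in place of 1 before the logarithm gave a snoRNA median of -1.25. It left SNORD113-3 at -0.76 and SNORD114-2 at -0.86, both short of 2-fold.

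Most snoRNA features were dim, and the olfactory receptor genes served as a yardstick for that. The median olfactory receptor read 24.5, 24.8 and 23.0 in CAsE-PE at 30, 33.5 and 35 weeks, against 25.0, 26.5 and 28.6 in RWPE-1 cells of passages 18, 38 and 42. Of the 6 snoRNAs, 5, 6 and 6 lay below that median in CAsE-PE, against 1, 1 and 2 in RWPE-1. Below the 5th percentile of the olfactory receptors there were 4 on each CAsE-PE array, against 0, 0 and 1 in RWPE-1. Above the 95th percentile there were 0 on each CAsE-PE array, against 2 on each RWPE-1 array (SNORD114-3 and SNORD114-26). All 6 snoRNAs and RTL1 had means over the arrays within the dimmest 33.3% of genes. SNORD114-3 and SNORD114-26 came under that cut, 6.25 on the log2 scale, only through their CAsE-PE levels. Their RWPE-1 means were 7.97 and 6.52. MEG3 and DLK1 passed such a filter, MEG3 through its RWPE-1 level.

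The array measured few members of the snoRNA families. Of 9 SNORD113 and 31 SNORD114 genes in the RefSeq gene table, 2 and 4 had a feature of their own. The copies of a family resemble each other, so a feature may take up RNA of its relatives, and a feature over a snoRNA gene cannot tell the trimmed snoRNA from the longer host transcript.

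Within RWPE-1, a slope over passage was fitted across all genes with limma, a contrast that the choice of members did not use. No member passed at an adjusted p of 0.05, where 0.0217% of all genes did. At an unadjusted p under 0.05, 1 of 9 members passed, beside 5.82% of all genes. That member was MEG3, higher by 0.017 log2 units per passage (unadjusted p = 0.0490, limma adjusted p = 0.848). The snoRNAs did not follow the same order of arrays. At passage 38, 5 of the 6 snoRNAs had their highest RWPE-1 value, and at passage 42, where MEG3 was highest, 5 of 6 had their lowest. The share of all genes with such orders was not counted. The median of 146 snoRNA genes outside this cluster and the SNORD115 and SNORD116 families was also lowest at passage 42. Relative to the RWPE-1 mean it was 0.09, 0.06 and -0.13 at passages 18, 38 and 42. The SNORD115 and SNORD116 medians were not lowest there.

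Within CAsE-PE, no member passed in the limma slope over weeks of arsenite, where 0.25% of all genes did. At an unadjusted p under 0.05, 1 of 9 passed, beside 11.3% of all genes. SNORD114-3 had a slope of -0.13 log2 units per week (unadjusted p = 0.00614, limma adjusted p = 0.208). At 35 weeks 4 of the 6 snoRNAs had their lowest CAsE-PE value, an order whose share over all genes was not counted. With 2 residual degrees of freedom, small slopes could not be told from 0.

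The rest of the cluster was read from the 18 other measured genes between DLK1 and DIO3, of which 16 are microRNA genes. By limma, 2 of the 18 fell in CAsE-PE (8.71% of all genes fell), 0 rose (9.04% of all genes rose) and 16 did not pass. At an unadjusted p under 0.05, 9 were lower and 0 higher, beside 17.3% of all genes lower and 15.1% higher. Of the 18 differences 17 were negative, as were 59.5% of those of all genes and 82% of those of the olfactory receptor genes. They ran between -0.47 and 0.21 with a median of -0.27, and the 16 microRNA genes had a median of -0.24. The median was -0.12 over the olfactory receptor genes and -0.06 over all genes. The features read microRNA genes, not mature arms, and most of them were dim.

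Both genes that fell encode microRNAs of the maternal copy, and their mature sequences from RefSeq are given 5′ to 3′ with the seed, bases 2 to 8, in capitals.
hsa-miR-382-5p: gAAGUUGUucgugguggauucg
hsa-miR-382-3p: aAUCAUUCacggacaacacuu
hsa-miR-154-5p: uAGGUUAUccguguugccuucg
hsa-miR-154-3p: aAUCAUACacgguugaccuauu
hsa-miR-487a-3p: aAUCAUACagggacauccaguu
The last is shown because it shares its seed with hsa-miR-154-3p, while the gene it comes from, MIR487A, differed by -0.08 (limma adjusted p = 0.729). MIR382 read 17.9, 14.7 and 12.4 in CAsE-PE at 30, 33.5 and 35 weeks, against 20.7, 22.3 and 19.9 in RWPE-1 cells of passages 18, 38 and 42. It fell by 0.47 on the log2 scale (SE 0.13, limma adjusted p = 0.0395). MIR154 read 20.4, 19.3 and 17.1 in CAsE-PE, against 27.1, 26.0 and 23.8 in RWPE-1, and fell by 0.42 (SE 0.11, limma adjusted p = 0.0272). The groups of neither gene overlapped, but the calls were fragile. Both were lost with 16 added before the logarithm (adjusted p = 0.0856 for MIR382 and 0.0634 for MIR154) and with several arrays left out (up to 0.140 for MIR382 and up to 0.107 for MIR154), and MIR382 was also lost after median centring (0.0616).

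The far end of the cluster holds DIO3, the enzyme that inactivates thyroid hormone and is read mainly from the paternal copy, with its antisense neighbour DIO3OS. DIO3 read 72.6, 61.7 and 62.2 in CAsE-PE, against 81.7, 77.5 and 85.4 in RWPE-1. Its groups did not overlap, but the difference of -0.31 did not pass (SE 0.11, limma adjusted p = 0.0734). DIO3OS, which had a feature of its own (7981326), differed by -0.32 (limma adjusted p = 0.0737). The strand that each feature reads is not given, and whether the pair share signal was not tested. The only positive difference belonged to the dim MIR376C, at 0.21 (limma adjusted p = 0.172).

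**Figure D2:**
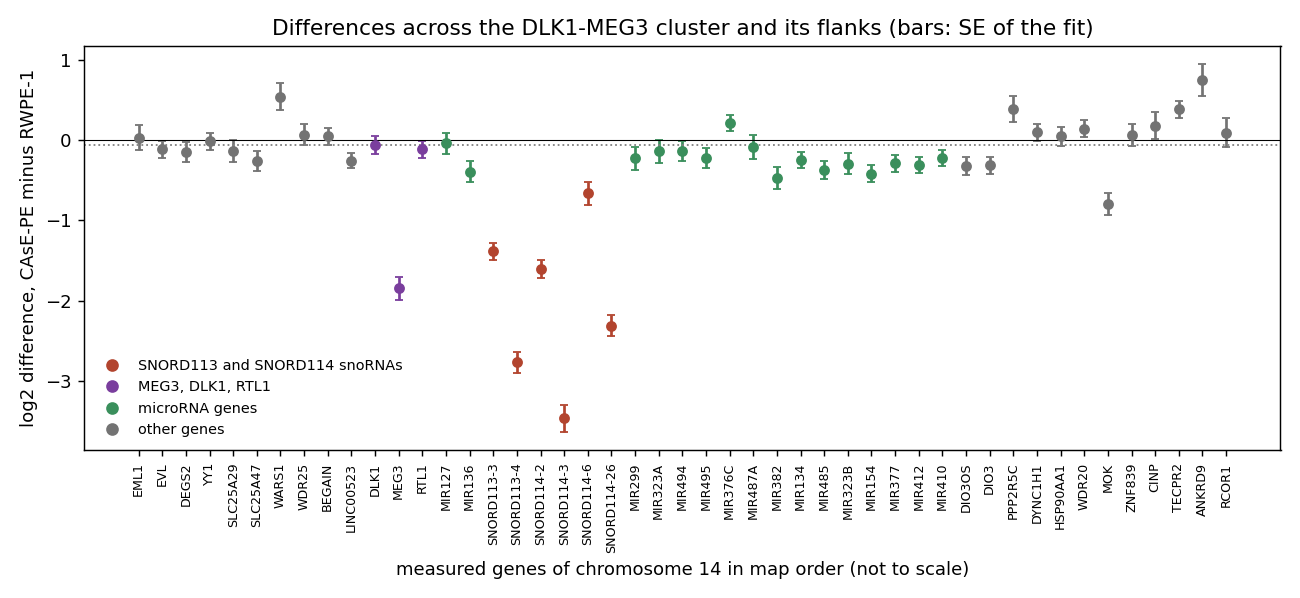
Points give the log2 difference, CAsE-PE minus RWPE-1, with its SE for the measured genes of the cluster and the 10 measured genes on each side, in map order and not to scale; the dotted line is the median of all genes. MEG3 and 5 of the 6 snoRNAs lie below -1, and the other genes of the plot lie between -0.79 and 0.74.

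Of the 20 flanking genes 3 passed in limma, beside 17.7% of all genes. Of the 10 measured genes before DLK1, 0 passed in limma, and 1 was higher and 1 lower at an unadjusted p under 0.05. Of the 10 after DIO3, 2 rose and 1 fell. MOK, a kinase gene, read 125, 156 and 160 in CAsE-PE, against 270, 275 and 219 in RWPE-1, and fell by 0.79 (SE 0.14, limma adjusted p = 0.00409). ANKRD9 rose by 0.74 (SE 0.20, limma adjusted p = 0.0310), which quantile normalisation (0.0505) or leaving out 1 of several arrays (up to 0.118) ended. TECPR2 rose by 0.38 (SE 0.11, limma adjusted p = 0.0344) and lost that call whichever array was left out (0.0539 to 0.104). The median of the 20 flanking genes was 0.06.

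No snoRNA gene outside the cluster fell in CAsE-PE. The imprinted SNORD116 family is a paternally read box C/D array of the Prader-Willi region on chromosome 15. Of its 20 measured genes 16 rose and 0 fell, beside 9.04% and 8.71% of all genes, with a median difference of 1.18. SNORD116-13 read 119, 48.9 and 93.6 in CAsE-PE at 30, 33.5 and 35 weeks, against 31.7, 21.0 and 27.8 in RWPE-1 cells of passages 18, 38 and 42. Each CAsE-PE array was above the RWPE-1 arrays, with the 33.5-week array the lowest of them, and the gene rose by 1.59 (SE 0.29, limma adjusted p = 0.00543). SNORD116-29 rose by 1.49 (SE 0.30, limma adjusted p = 0.00814) and SNORD116-1 by 1.39 (SE 0.25, limma adjusted p = 0.00552). Without the passage 38 array 10 of the 20 rose.

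SNORD115, the second snoRNA family of that region, which is known mainly from brain, had 0 of 20 genes that passed in limma, with 4 higher and 0 lower at an unadjusted p under 0.05 and a median difference of 0.23. SNORD115-44 had the largest difference, 1.01 (limma adjusted p = 0.114). Of 6 other measured genes of that region, only UBE3A, a ubiquitin ligase gene, passed, and it rose by 0.49 (SE 0.09, limma adjusted p = 0.00639).

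Of the 146 remaining snoRNA genes, 47 rose and 0 fell, beside 9.04% and 8.71% of all genes. At an unadjusted p under 0.05 the counts were 73 higher and 4 lower, beside the 15.1% and 17.3% of all genes given above. SNORD58A rose by 1.66 (SE 0.30, limma adjusted p = 0.00509), SNORD45B by 1.55 (SE 0.32, limma adjusted p = 0.0101) and SCARNA9 by 1.44 (SE 0.25, limma adjusted p = 0.00441). The count that rose was 24 without the passage 38 array, 29 without the passage 42 array and 25 without the 35-week array. Their differences ran between -0.49 and 1.66 with a median of 0.38. None of these 146 genes, and none of the 40 SNORD115 and SNORD116 genes, was at least 2-fold lower in CAsE-PE. Of the 6 SNORD113 and SNORD114 members, chosen with their difference in view, 5 were. With 16 added before the logarithm, SNORD113-3 (-0.76) and SNORD114-2 (-0.86) no longer were. A test of that contrast between families was not made.

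**Figure D3:**
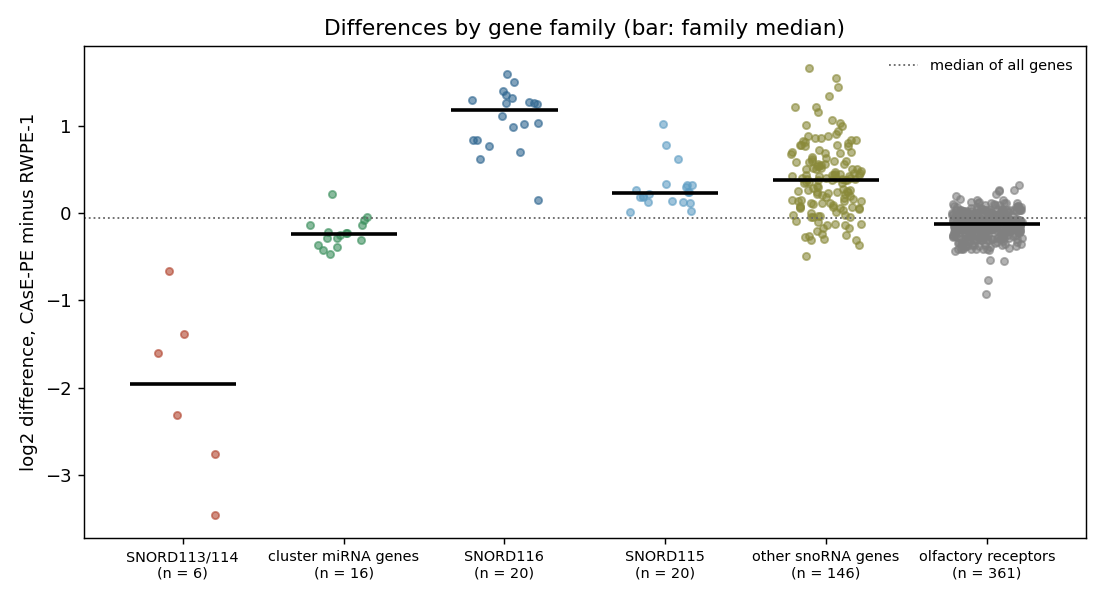
Each point is the log2 difference, CAsE-PE minus RWPE-1, of 1 gene, grouped by family, with a bar for the family median and a dotted line for the median of all genes. The 6 SNORD113 and SNORD114 genes lie between -3.46 and -0.66, and the 20 SNORD116 genes between 0.15 and 1.59.

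Relative to the RWPE-1 mean, the median of the 6 snoRNA members was -2.00, -2.00 and -1.88 in CAsE-PE at 30, 33.5 and 35 weeks, against 0.07, 0.14 and -0.20 in RWPE-1 cells of passages 18, 38 and 42. The median SNORD116 gene stood at 1.63, 0.56 and 1.33 in CAsE-PE, against 0.23, -0.14 and -0.11 in RWPE-1. Single members varied more than this median, with SNORD114-3 at -3.08, -3.57 and -3.73 and SNORD113-3 at -1.27, -1.34 and -1.55 in CAsE-PE. SNORD116 was lower at 33.5 weeks than at 30 or 35 weeks, and the families' patterns were not tested against each other.

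**Figure D4:**
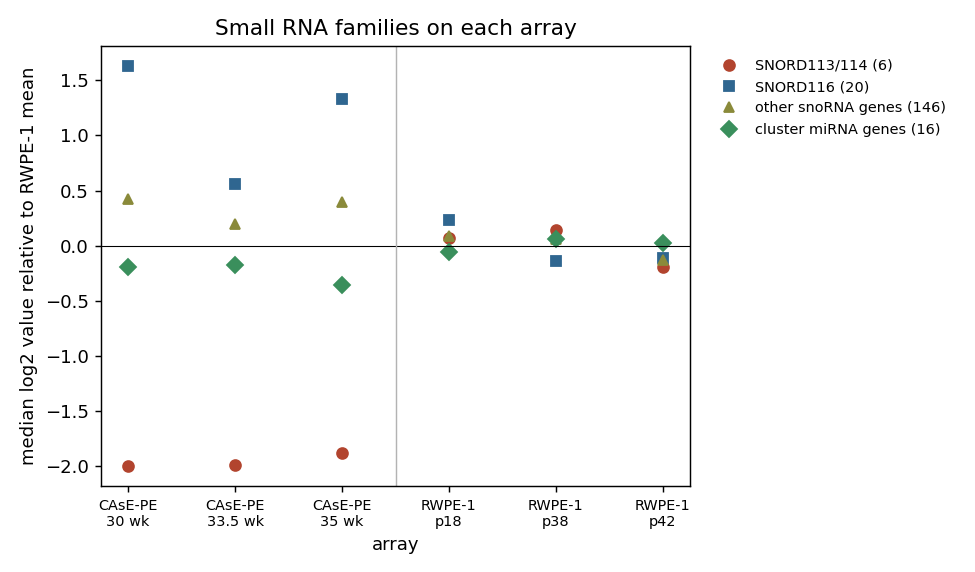
Points give the median log2 value of 4 small RNA families on each array, relative to each gene's RWPE-1 mean, with CAsE-PE arrays left and RWPE-1 arrays right of the vertical line. The 6 SNORD113 and SNORD114 genes lie near -2.00 on the 3 CAsE-PE arrays, and SNORD116 lies between 0.56 and 1.63 on them.

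The proteins that bind box C/D snoRNAs and take part in their assembly are encoded by 11 measured genes. By limma 0 of them passed, beside 17.7% of all genes, with 0 higher and 1 lower at an unadjusted p under 0.05. The largest difference was that of FBL, the methyltransferase fibrillarin, at -0.35 (SE 0.11, limma adjusted p = 0.0598), and 4 alternative settings, quantile normalisation, a pseudocount of 16, an intensity trend and array weights, called it lower (adjusted p of 0.0253 to 0.0451).

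Of 18 measured genes that set, keep or erase methylation at imprinted regions, 3 rose and 1 fell. Over all genes 9.04% rose and 8.71% fell. KDM1B, a histone demethylase needed for maternal imprints in mouse oocytes, rose by 0.44 (SE 0.11, limma adjusted p = 0.0282). SETDB1, a histone H3 lysine methyltransferase, rose by 0.42 (SE 0.11, limma adjusted p = 0.0309), and so did SMCHD1, a chromatin protein of imprinted clusters, at 0.42 (SE 0.11, limma adjusted p = 0.0311). TET1, which oxidises methylated cytosine, fell by 0.39 (SE 0.09, limma adjusted p = 0.0195). Each of these 4 calls was lost with at least 4 of the 6 arrays left out in turn, at adjusted p up to 0.104, 0.0825, 0.105 and 0.0667. ZFP57, the zinc finger protein that guards imprints, differed by 0.01 (limma adjusted p = 0.954), its partner TRIM28 by -0.14 (0.388) and the maintenance methyltransferase DNMT1 by -0.07 (0.736).

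DLK1 acts beside Notch receptors, and of 16 measured genes of that pathway 0 rose and 3 fell. Over all genes 9.04% rose and 8.71% fell. At an unadjusted p under 0.05, 2 were higher and 3 lower, beside 15.1% and 17.3% of all genes. The median difference was -0.06, with 8 positive and 8 negative. NOTCH3 had the largest positive difference, 0.81 (SE 0.26, limma adjusted p = 0.0601), and its groups did not overlap. JAG1, a Notch ligand, read 1134, 651 and 723 in CAsE-PE at 30, 33.5 and 35 weeks, against 1572, 1503 and 1614 in RWPE-1 cells of passages 18, 38 and 42, and fell by 0.94 (SE 0.19, limma adjusted p = 0.00806). DLK2, the relative of DLK1, fell by 0.61 (SE 0.15, limma adjusted p = 0.0252), a call that 3 of the 6 left-out arrays ended (up to 0.0724). The receptor gene NOTCH2 fell by 0.39 (SE 0.11, limma adjusted p = 0.0400), and median centring (0.0782) or any of 5 left-out arrays (up to 0.142) ended that call.

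Of 9 measured genes tied to MEG3 through p53 or Polycomb repressive complex 2, 2 rose and 1 fell. The shares over all genes were 9.04% and 8.71%. VEGFA, a growth factor of blood vessels, rose by 1.23 (SE 0.28, limma adjusted p = 0.0169) but not without the passage 18 (0.0568) or the passage 38 (0.0663) array. EZH2, the methyltransferase of the complex, rose by 0.45 (SE 0.10, limma adjusted p = 0.0146), and 4 of the left-out arrays ended that call (up to 0.0605). JARID2, a cofactor of the complex, fell by 0.62 (SE 0.10, limma adjusted p = 0.00379). The p53 targets MDM2, at 0.03 (limma adjusted p = 0.928), and CDKN1A, at 0.04 (0.922), overlapped between the lines. GDF15, another p53 target, differed by 0.90 (SE 0.43, limma adjusted p = 0.186), with overlapping groups.

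Among 10 measured relatives of RTL1, genes derived from the same kind of retrotransposon, 1 rose and 2 fell. The shares over all genes were 9.04% and 8.71%. PEG10, itself imprinted and paternally read, had 649, 673 and 643 in CAsE-PE, against 1222, 1227 and 1174 in RWPE-1, and fell by 0.88 (SE 0.09, limma adjusted p = 0.000315). RTL8B fell by 0.61 (SE 0.13, limma adjusted p = 0.00982), which did not pass without the passage 38 array (0.0511), and RTL6 rose by 0.44 (SE 0.10, limma adjusted p = 0.0128).

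The genes most like MEG3 over the 6 arrays, by root mean square distance between log2 values centred on each gene's mean, were HSD17B11 (0.079), LAMB2 (0.123), KLF12 (0.129), RNF128 (0.152) and ARMCX1 (0.162). For SNORD114-3 they were ZNF560 (0.135), ANXA6 (0.214), SPARC (0.231), ZNF730 (0.265) and FLRT2 (0.268). Among the members, SNORD113-3 (0.245) and SNORD114-2 (0.265) were nearest to MEG3, and DLK1 (0.898) and RTL1 (0.872) were farthest. SNORD114-3 (0.837) was almost as far as RTL1. SNORD114-26 (0.366), SNORD113-4 (0.527) and SNORD114-6 (0.647) lay between. Only FLRT2 of these 10 genes lies on chromosome 14, and all distances share the same arrays and are mostly set by the difference between the lines.

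The arrays were alike in scale, with median intensities of 91.7 to 92.3 in CAsE-PE and 93.3 to 97.2 in RWPE-1, and correlated at 0.985 to 0.995 within a line and 0.956 to 0.969 between lines. The basal keratin KRT5 was high on all arrays, at 3569 to 4289 in CAsE-PE and 4091 to 4387 in RWPE-1. KRT14 fell by 1.60 (limma adjusted p = 0.00748) and KRT15 by 1.77 (0.00714). The basal marker ITGB4 did not pass, at 0.16 (0.260), and was higher on every CAsE-PE array than on any RWPE-1 array. Of 4 simple epithelial markers 1 rose and 0 fell, beside 9.04% and 8.71% of all genes. The 1 that rose was CDH1, by 0.39 (limma adjusted p = 0.0186), and 3 of the left-out arrays ended that call (up to 0.0811). The prostate secretory gene KLK3 stayed within the dimmest 33.3% of genes. MEG3 is also a stromal transcript, and of 8 fibroblast markers 0 rose and 1 fell, PDGFRB by 0.32 (limma adjusted p = 0.0479, lost with any array left out, 0.0720 to 0.156). Their summed intensity was 585.5 to 672.2 in CAsE-PE and 620.6 to 649.1 in RWPE-1. COL3A1 read 64.5 to 71.6 in CAsE-PE and 77.8 to 89.5 in RWPE-1. Of the 8 differences 6 were negative and 2 positive. The positive ones were DCN, the largest of the list at 0.52 (limma adjusted p = 0.163, groups overlapping), and COL1A1 at 0.10 (0.528). Of 4 leukocyte markers, 0 rose and 2 fell, beside 9.04% and 8.71% of all genes. CD68 fell by 0.89 (limma adjusted p = 0.00516) and CD14 by 0.43 (0.0262), and 3 of the left-out arrays ended the CD14 call (up to 0.0989). CD68 read 534 to 803 in CAsE-PE and 1042 to 1303 in RWPE-1. The pan-leukocyte marker PTPRC read only 12.3 to 13.6 in CAsE-PE and 13.3 to 14.9 in RWPE-1. Of 4 endothelial markers 0 passed in limma and 0 at an unadjusted p under 0.05, and their sum was 178.8 to 198.8 in CAsE-PE and 195.5 to 224.0 in RWPE-1. Of 3 neuroendocrine markers 0 passed in limma, and 3 were lower at an unadjusted p under 0.05, beside 17.3% of all genes. The differences were -0.29 for CHGA, -0.34 for SYP and -0.51 for CHGB. All 3 were within the dimmest 33.3% of genes, and 82% of the olfactory receptor genes had negative differences too. Their summed intensity was 122.9 to 142.3 in CAsE-PE and 163.6 to 184.9 in RWPE-1. The part of other cell types in the low level of the members was not tested.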

How the data were processed

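Total RNA was labelled with biotin and read on 6 whole-transcript arrays of 1 colour each, per the labels' protocols. The authors deposited a table that gives each feature's intensity on each array. The values reached 16617 and were read as linear from their range. How background, summary values and normalisation were handled was not stated by the labels used. Of 33252 features, 19460 had 1 gene symbol in the platform annotation, 1754 several and 12038 none. They covered 18417 genes, and where a gene had several features its brightest one on average stood for it.

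From the deposited intensity, log2(value + 1) was fitted by the functions lmFit and eBayes of limma (version 3.58.1, under R 4.3.3), with two-sided p-values adjusted by Benjamini-Hochberg over all genes and called under 0.05. A second model held a passage slope within RWPE-1 and a week slope within CAsE-PE. The fit was tested on simulated data before use: in the comparison of the lines, with 50 of 18417 genes changed at each size, 98% were recovered at -2 log2 units, 78% at -1, 84% at 1 and 100% at 2, with 6 false calls.

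The members and lists were chosen with earlier results of these data known. The genes named were all members; of the cluster and its flanks the called genes; of other lists up to 3 rises and 3 falls by size, or the largest difference where none passed; and the 5 genes most alike to MEG3 and SNORD114-3. Genes with a known role that did not pass were added to some lists after their values were seen. Alternatives were quantile normalisation, median centring, a pseudocount of 16, the mean over features, leaving out the dimmest 33.3% of genes, an intensity trend with robust fitting, array weights and leaving out each array. The number of arrays limits the precision. Sequences are RefSeq's, build GRCh38.p14; snoRNA sequences are not used here.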

Additional observations from a re-analysis of the deposited data

How the results depend on the processing

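Of the alternatives run, only quantile normalisation and median centring could lower the number of members without overlap, and both gave 7. The snoRNA median of -1.96 was -1.25 with a pseudocount of 16, a setting that by construction compresses dim features, and -2.06 to -1.89 with an array left out. Over all genes, array weights called 2596 higher and 2746 lower, and leaving out an array gave 949 to 1665 higher and 939 to 1519 lower. Of the 18 other cluster genes, quantile normalisation called 4 lower, median centring 1, a pseudocount of 16 called 0, leaving out the dimmest 33.3% of genes (which left 2 of the 18) called 0, array weights 9 and leaving out an array 0 to 3. With an array left out, 10 to 19 SNORD116 genes and 24 to 58 other snoRNA genes rose. An intensity trend with robust fitting raised the genes called to 13 for passage and 109 for weeks, with 0 members in both. The cause of these changes was not tested. Median centring moved the median of all genes by 0.05 on the log2 scale. No direction of a member or named gene with a call reversed under the alternatives run; DLK1, which overlapped, ranged between -0.11 and 0.02 with an array left out. No paired analysis was possible because the labels give passages and weeks and no replicate numbers that the lines share. Dim intensities limit the snoRNA and microRNA values, and 3 arrays a line limit every test.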
